A study of Mus musculus with 9 samples.

Results

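The transcripts of 6 genes of the Maf, Nrf2 and Bach1 network were followed over the first hour of lipopolysaccharide (LPS) in immortalized mouse macrophages: the large Maf gene Maf, the small Maf genes Maff, Mafg and Mafk, and the CNC genes Nfe2l2, which encodes Nrf2, and Bach1. They were taken by gene symbol from the deposited count table, which holds 55450 gene identifiers, and all 6 were among the 14246 genes with enough counts to be tested. The cells were IMM, with the genotype given as WT and no other allele, and LPS was used at 100 ng/mL in their serum-containing medium. Libraries were made from 3 untreated samples (0 min), 3 samples after 30 min of LPS and 3 samples after 60 min of LPS, with ribosomal RNA removed and strand information kept by the kit. The labels call the 3 libraries of a time biological replicates and do not say whether they came from separate cultures, so the p-values measure the spread between these libraries. The 9 libraries include none held for 30 or 60 min without LPS, so LPS, handling and elapsed time cannot be told apart. IMM is 1 immortalized line, and primary macrophages were not measured.

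Maf proteins are basic leucine zipper (bZIP) transcription factors that bind DNA as dimers. The small Mafs have a DNA-binding and dimerization region but no activation domain, so their homodimers repress, and they act mainly as obligate partners of the CNC (cap'n'collar) proteins. With Nrf2 they activate genes of antioxidant defence through antioxidant response elements, and with Bach1, a heme-regulated repressor, they silence overlapping sites. The large Maf c-Maf (Maf) carries its own activation domain, and in macrophages it is known for controlling Il10 and the differentiated, non-dividing state. Nrf2 and Bach1 are controlled largely through protein stability, which RNA counts do not show.

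Library totals lay between 26867400 and 30402306 counts. All 6 macrophage markers (Csf1r, Adgre1, Cd68, Lyz2, Itgam and Mertk) were above 1 CPM (counts scaled to a common library size), and their summed level was 1681 to 1762 CPM at 0 min, 1746 to 1780 CPM at 30 min and 1731 to 1819 CPM at 60 min. All 3 mast cell markers were at 0 in every library. The 3 dendritic cell markers summed to 8.32 to 8.86 CPM at 0 min, 8.09 to 9.10 CPM at 30 min and 6.16 to 7.01 CPM at 60 min. The 4 neutrophil markers, with S100a9 and Ly6g at 0, summed to 5.82 to 6.89, 5.68 to 6.03 and 5.51 to 6.36 CPM at the same times. The 3 T cell markers, with Cd3e at 0, summed to 2.79 to 3.56, 3.54 to 3.80 and 2.73 to 2.90 CPM. In each of these 3 lists, 1 marker reached a mean of 1 CPM. The 3 endothelial markers, with none at 0, summed to 1.41 to 1.79, 1.23 to 2.20 and 1.62 to 2.17 CPM. The B cell sum was at most 0.383 CPM (Ms4a1 at 0), the fibroblast sum at most 0.210 CPM (Pdgfra at 0) and the epithelial sum at most 0.070 CPM (Krt8 at 0). The part of these markers in the results was not tested.

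All 6 genes had changed by 60 min of LPS: Maff, Nfe2l2, Mafk, Mafg and Bach1 were higher and Maf was lower. A gene was called changed at an adjusted p under 0.05 in edgeR's quasi-likelihood test, fitted to all 14246 genes and adjusted over them by the Benjamini-Hochberg method. At 30 min against 0 min, 3 of the 6 were called higher and 1 lower, where 8.18% of all tested genes were called (4.84% higher, 3.35% lower). At 60 min against 0 min, 5 were called higher and 1 lower, where 25.0% of all genes were called (13.3% higher, 11.7% lower). At 60 min against 30 min, 4 were called higher and 1 lower, where 16.5% were called (8.87% higher, 7.65% lower). The median log2 change of the 6 was 0.13 at 30 min and 0.31 at 60 min against 0 min and 0.21 at 60 min against 30 min, and that of all genes tested was 0.01, 0.00 and 0.00 in the same order. The 3 libraries of 1 time did not overlap those of the other in CPM for all 6 genes at 30 min against 0 min, for all 6 at 60 min against 0 min and for 5 of 6 at 60 min against 30 min. The same held for 25.9%, 38.3% and 33.8% of all tested genes. In a bulk sample, fewer cells making a transcript and less of it per cell cannot be told apart.

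**Figure D1:**
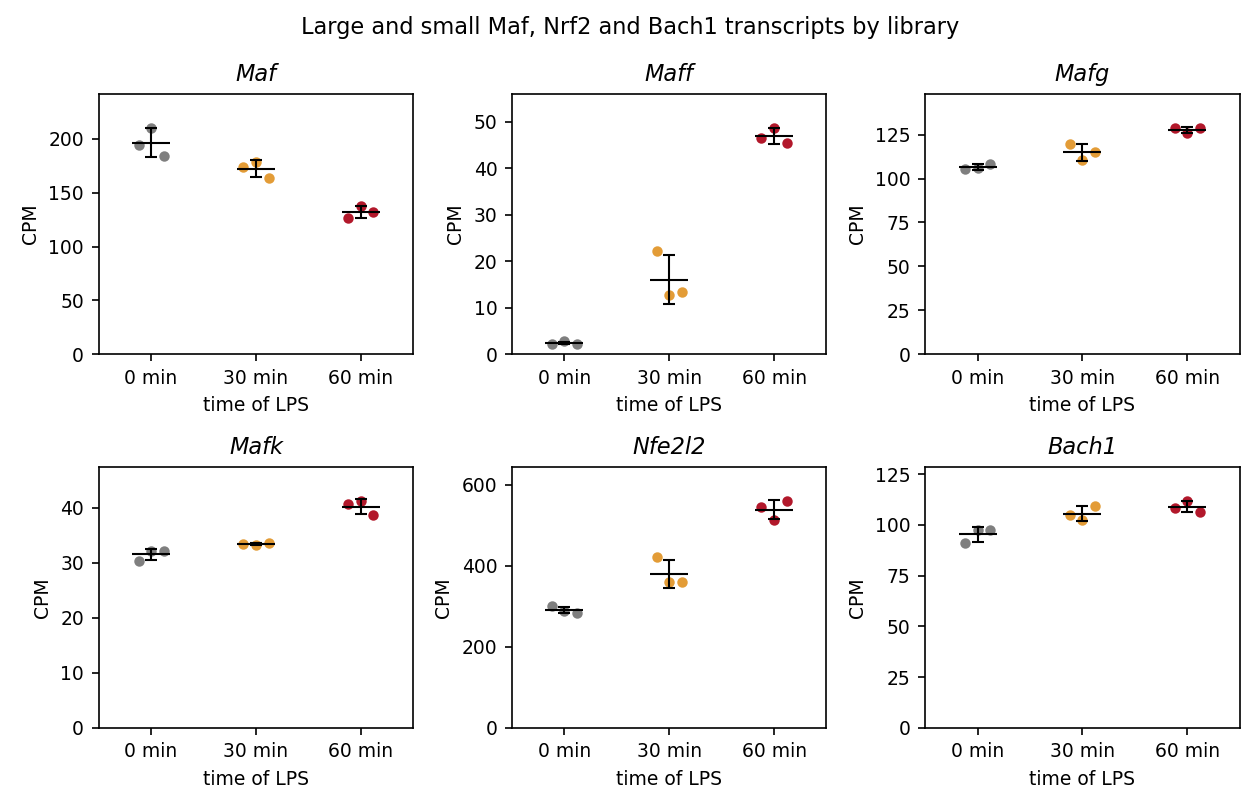
CPM (TMM-scaled) of each gene in every library by minutes of LPS; points are libraries, bars are the mean and SD of 3. Maff sits between 45.5 and 48.7 CPM at 60 min and between 2.20 and 2.78 CPM at 0 min, Nfe2l2 climbs in both steps, Maf declines in both, and the other 3 move by less.

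Maff, the small Maf known as an inducible member of its family, had by far the widest range of the 6. It lies on chr15:79346621-79359076 (GRCm38, plus strand; ENSMUSG00000042622.14). Its level was 2.20, 2.78 and 2.30 CPM at 0 min, 22.2, 12.7 and 13.4 CPM at 30 min, and 46.5, 48.7 and 45.5 CPM at 60 min. The counts behind these values were 60, 79 and 71 at 0 min, 635, 365 and 370 at 30 min, and 1326, 1437 and 1340 at 60 min. The 3 times were fully separated, and replicate 1 at 30 min stood above the other two libraries of that time.

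Maff was 6.62-fold higher at 30 min than at 0 min (log2 change 2.73 ± 0.20, with the SE after each log2 change, edgeR adjusted p = 4.70e-07) and 19.3-fold higher at 60 min than at 0 min (4.27 ± 0.19, edgeR adjusted p = 5.94e-10). Ordered by log2 change over all 14246 genes, it stood at position 56 from the top at 30 min and at position 42 at 60 min. The further difference between 60 and 30 min was 2.92-fold (log2 change 1.54 ± 0.15, edgeR adjusted p = 5.30e-06). Without replicate 1 at 30 min, the log2 change was 2.42 at 30 min against 0 min and 1.85 at 60 min against 30 min. Of the log2 change present at 60 min, 63.8% was present at 30 min.

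Maff has 3 start sites in the RefSeq promoter table, and each of the 250-base windows before them held a match to a different motif. The windows are shown because Maff is the gene that moved most. Positions count back from -1, the base before the start site. The window of the start at 79346621 (chr15:79346371-79346620, GRCm38.p6, plus strand) held an antioxidant response element core at -112 to -104, in capitals in the first line. The core is written TGACNNNGC and is the kind of site that CNC and small Maf dimers bind. The window of the start at 79347520 (chr15:79347270-79347519) held a cAMP response element, TGACGTCA, at -29 to -22, in capitals in the second line. The third line shows 30 bases (chr15:79348322-79348351) of the window of the start at 79348402, with a match to the kB consensus of NF-kB proteins at -70 to -61 in capitals. Of this window, 95 bases lie in an annotated exon of another Maff transcript.
Maff, start at 79346621: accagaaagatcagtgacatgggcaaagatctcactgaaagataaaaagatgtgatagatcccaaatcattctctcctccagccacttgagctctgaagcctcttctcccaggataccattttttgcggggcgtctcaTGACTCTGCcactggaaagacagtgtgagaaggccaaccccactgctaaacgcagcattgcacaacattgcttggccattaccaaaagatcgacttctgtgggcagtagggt
Maff, start at 79347520: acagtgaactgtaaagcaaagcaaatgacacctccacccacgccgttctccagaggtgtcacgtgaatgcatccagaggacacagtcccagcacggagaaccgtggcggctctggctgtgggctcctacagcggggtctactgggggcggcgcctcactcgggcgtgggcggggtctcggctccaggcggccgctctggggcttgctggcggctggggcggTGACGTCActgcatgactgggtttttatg
Maff, start at 79348402: tgttgtctctGGAGTTTCCCctggctggag

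Among the 32851 windows of 250 bases in the table, searched on both strands, 10.2% held the antioxidant response element core, 1.55% the cAMP response element and 9.55% the kB consensus. No window of the members matched the AP-1 motif TGANTCA, found in 6.75% of all windows, or the CArG box of serum response factor, found in 1.47%. A match says only that the letters are there.

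Mafg and Mafk, the other two small Mafs, were called higher at 60 min but not at 30 min against 0 min, and moved by far less than Maff. Mafg (chr11:120625117-120633600, minus strand; ENSMUSG00000051510.13) had 105.1, 106.3 and 108.4 CPM at 0 min, 119.7, 110.3 and 114.8 CPM at 30 min, and 129.0, 125.9 and 128.6 CPM at 60 min. Every 60 min library lay above every 30 min library, and these above every 0 min library. At 30 min against 0 min, the log2 change of 0.11 ± 0.04 was not called (edgeR adjusted p = 0.0893). Mafg was called higher at 60 min against 0 min (log2 change 0.26 ± 0.04, edgeR adjusted p = 8.78e-05) and at 60 min against 30 min (0.15 ± 0.04, edgeR adjusted p = 0.00894). The call at 60 min against 30 min was lost without replicate 2 at 30 min (0.12, edgeR adjusted p = 0.0575).

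Mafk (chr5:139791513-139802653, plus strand; ENSMUSG00000018143.10) had 30.3, 32.2 and 32.1 CPM at 0 min, 33.3, 33.2 and 33.6 CPM at 30 min, and 40.6, 41.2 and 38.7 CPM at 60 min. The gap between the 60 min and the 30 min libraries was wider than that between the 30 min and the 0 min libraries. The log2 change was 0.08 ± 0.05 at 30 min against 0 min, which was not called (edgeR adjusted p = 0.308). It was 0.35 ± 0.04 at 60 min against 0 min (edgeR adjusted p = 3.98e-05) and 0.27 ± 0.04 at 60 min against 30 min (edgeR adjusted p = 0.000757). Of the log2 change at 60 min, 41.5% was present at 30 min for Mafg and 24.0% for Mafk.

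**Figure D2:**
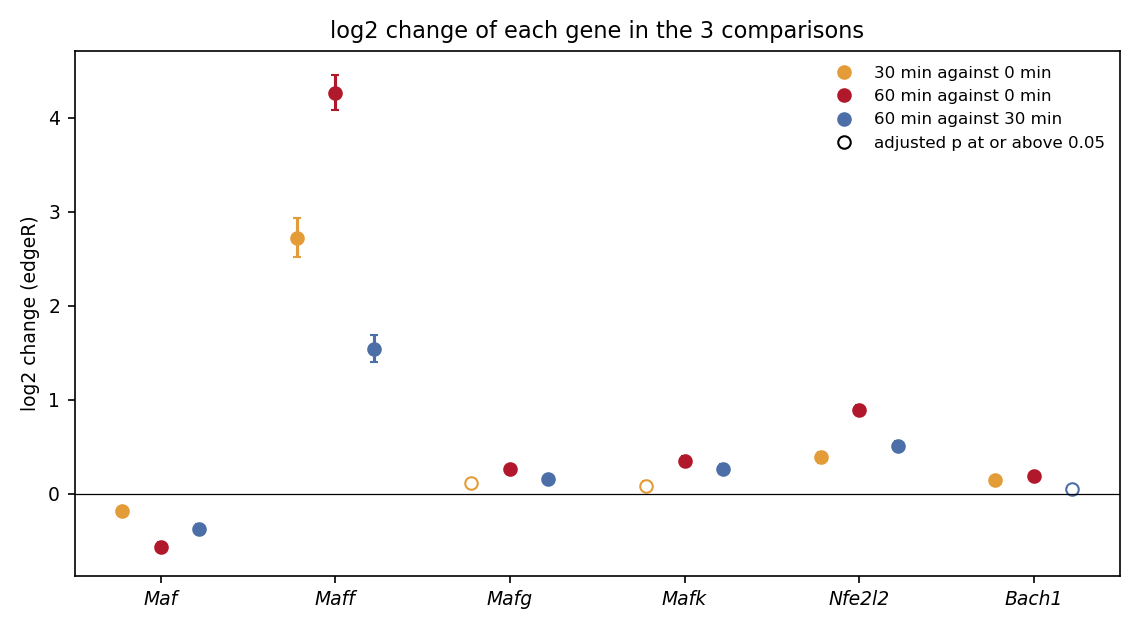
Log2 change of each gene (edgeR, bars ± SE) in the 3 comparisons; open points have an adjusted p at or above 0.05. Maff stands apart at 2.73, 4.27 and 1.54, Maf is below 0 in each comparison, and the open points are Mafg and Mafk at 30 min against 0 min and Bach1 at 60 min against 30 min.

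Maff made up a far larger part of the small Maf RNA pool at 60 min than at 0 min. To set genes side by side, CPM was divided by the length of each gene's joined exons (CPM per kb). Maff then made up 3.34% ± 0.39 of the summed small Maf level at 0 min, 17.4% ± 4.2 at 30 min and 35.3% ± 0.82 at 60 min (SD, n = 3 each). The share of Mafg was 67.8% ± 0.75 at 0 min, 58.2% ± 2.4 at 30 min and 44.5% ± 1.1 at 60 min. That of Mafk was 28.8% ± 0.41, 24.4% ± 1.9 and 20.1% ± 0.38 at the same times. The libraries of the 3 times did not overlap in the share of Maff, which ranged from 14.8% to 22.3% at 30 min with replicate 1 highest.

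The summed small Maf level was 28.0 ± 0.58 CPM per kb at 0 min, 35.2 ± 2.8 at 30 min and 51.2 ± 0.72 at 60 min, and was 1.83-fold higher at 60 min than at 0 min. Maff made up 74.0% of that gain. Maff was below Mafk at 0 min (mean log2 ratio of CPM per kb -3.12 ± 0.15) and above it in every 60 min library (0.81 ± 0.025). At 30 min the mean log2 ratio was -0.51 ± 0.45, with replicate 1 at 0.00, replicate 2 at -0.80 and replicate 3 at -0.74. The shares, the gain and the Maff to Mafk ratio depend on the lengths used. In plain counts Maff was 1.73% at 0 min, 9.68% at 30 min and 21.8% at 60 min. The plain sum was 140.5 CPM at 0 min and 214.9 CPM at 60 min, with Maff at 2.43 and 46.9 CPM. The plain log2 ratio of Maff to Mafk was -3.70 at 0 min, -1.10 at 30 min and 0.22 at 60 min. These shares and ratios are sums over chosen genes and were given no test.

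**Figure D3:**
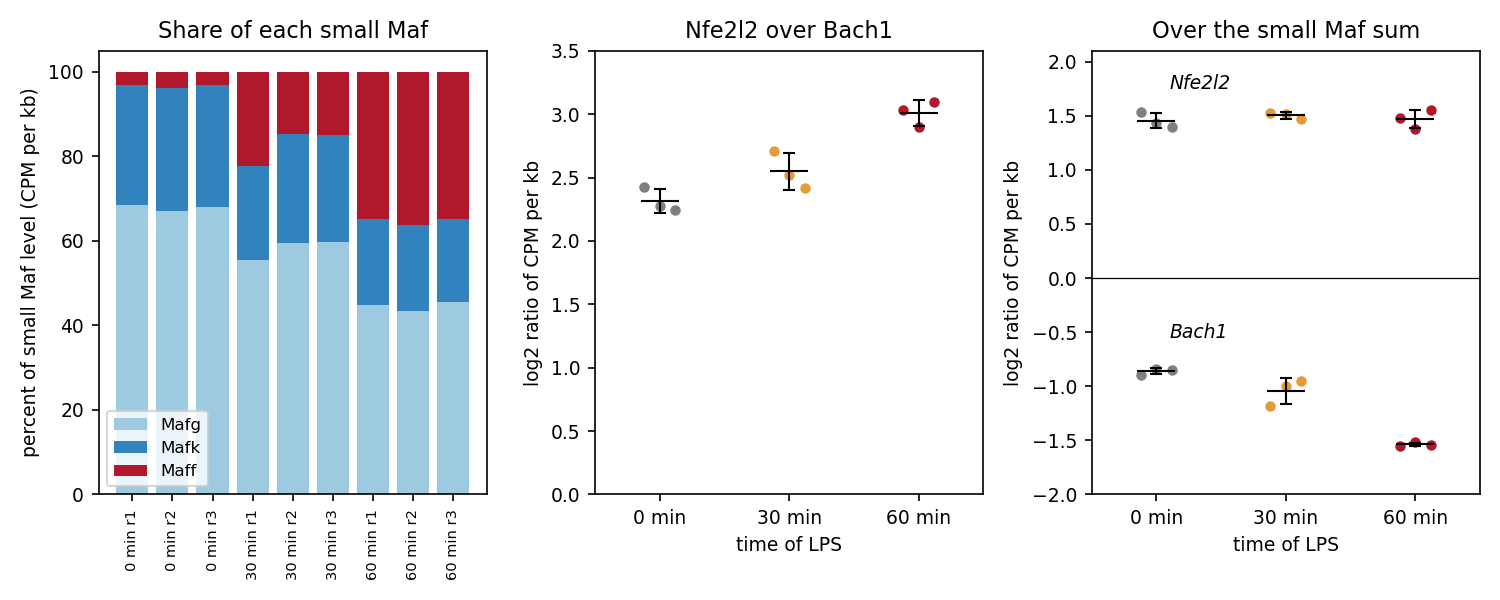
Left, percent of the summed small Maf level (CPM per kb) held by Maff, Mafk and Mafg in each library (r1 to r3). Middle and right, log2 ratios of CPM per kb, with the mean and SD of 3 libraries. The Maff share is 35.3% at 60 min and 3.34% at 0 min, Nfe2l2 over Bach1 climbs to 3.01, Nfe2l2 over the small Maf sum stays between 1.38 and 1.55, and Bach1 over the small Maf sum drops to -1.54.

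Nfe2l2, the activator of the network, was the most abundant of the 6 at every time and rose in both steps. It lies on chr2:75675513-75704641 (minus strand; ENSMUSG00000015839.6). Its level was 300.0, 288.9 and 284.1 CPM at 0 min, 420.4, 359.6 and 359.2 CPM at 30 min, and 543.7, 512.0 and 559.6 CPM at 60 min. The 3 times were fully separated, and replicate 1 at 30 min was again the highest library of its time.

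Nfe2l2 was 1.30-fold higher at 30 min than at 0 min (log2 change 0.38 ± 0.06, edgeR adjusted p = 0.000416) and 1.85-fold higher at 60 min than at 0 min (0.89 ± 0.06, edgeR adjusted p = 2.22e-08). It was 1.42-fold higher at 60 min than at 30 min (0.50 ± 0.06, edgeR adjusted p = 1.96e-05). Of the log2 change at 60 min, 43.3% was present at 30 min. Among 11313 tested protein-coding genes ordered by CPM per kb, its percentile was 96.1 at 0 min, 97.1 at 30 min and 98.0 at 60 min. That of Maff was 14.2, 48.0 and 77.5.

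The 250 bases before the RefSeq start of Nfe2l2 (chr2:75704664-75704913, GRCm38.p6, shown on the minus strand, 5′ to 3′) also held an antioxidant response element core. It lies at -240 to -232, in capitals, and the window is shown because Nfe2l2 and Maff are the 2 genes whose levels climbed most.
Nfe2l2: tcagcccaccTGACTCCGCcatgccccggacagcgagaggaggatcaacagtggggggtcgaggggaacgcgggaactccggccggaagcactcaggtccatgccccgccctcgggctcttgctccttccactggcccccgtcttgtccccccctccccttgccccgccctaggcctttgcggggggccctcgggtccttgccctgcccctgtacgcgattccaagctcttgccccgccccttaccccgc

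The same core was matched before Mafg at -222 to -214 and before Mafk at -13 to -5, so that 4 of the 7 windows of the members held it. The last 23 bases of the Mafk window lie in an annotated Mafk exon, and this match is within them. The short Maf core TGCTGA, found in 16.1% of all windows, was matched before Mafk at -226 to -221 and before Bach1 at -212 to -207. The table matched 5 of the 6 genes, and Maf was not among them.

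Bach1, the repressor that competes with Nrf2 for small Maf partners, had the smallest log2 change of the 6 at 60 min against 0 min, close to that of Mafg. It lies on chr16:87698945-87733346 (plus strand; ENSMUSG00000025612.5). Its level was 91.0, 97.3 and 97.7 CPM at 0 min, 104.8, 102.3 and 109.3 CPM at 30 min, and 108.4, 111.7 and 106.5 CPM at 60 min. The 0 min libraries lay below all others, and the 30 and 60 min libraries overlapped.

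The log2 change of Bach1 was 0.15 ± 0.04 at 30 min against 0 min (edgeR adjusted p = 0.0366) and 0.19 ± 0.04 at 60 min against 0 min (edgeR adjusted p = 0.00246). At 60 min against 30 min it was 0.05 ± 0.04 and not called (edgeR adjusted p = 0.505; 95% interval -0.03 to 0.12). The call at 30 min was lost when libraries were scaled by total counts (0.12, edgeR adjusted p = 0.0979), when the 60 min libraries were left out of the fit (0.14, 0.0699) or with a replicate block (0.15, 0.0601). It was also lost without replicate 1 (0.157) or replicate 2 (0.0523) at 0 min, replicate 1 (0.0773) or replicate 3 (0.156) at 30 min, or replicate 1 at 60 min (0.0650), each value an edgeR adjusted p. The call at 60 min against 0 min held in each of these.

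The ratio of activator to repressor RNA was highest at 60 min in all 3 libraries. The log2 ratio of Nfe2l2 to Bach1 in CPM per kb was 2.31 ± 0.097 at 0 min, 2.55 ± 0.15 at 30 min and 3.01 ± 0.10 at 60 min (SD, n = 3 each). Turned back from these mean log2 ratios, Nfe2l2 was 4.97-fold above Bach1 at 0 min, 5.85-fold at 30 min and 8.05-fold at 60 min. The size of these folds depends on the lengths used. By the longest transcript the mean log2 ratio was 2.86 at 0 min, 3.09 at 30 min and 3.55 at 60 min. In plain counts the mean log2 ratio was 1.61, 1.84 and 2.31 at the same times. In CPM per kb, the libraries compared as follows. The 60 min libraries, at 2.90 to 3.10, lay above all others, while the 30 min libraries at 2.42 to 2.71 overlapped those at 0 min, at 2.24 to 2.42, by 1 library each.

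Set against their shared small Maf partners, Bach1 RNA was lowest at 60 min in all 3 libraries, with and without length scaling. The log2 ratio of Nfe2l2 to the small Maf sum was 1.45 ± 0.070 at 0 min, 1.50 ± 0.033 at 30 min and 1.47 ± 0.084 at 60 min, with overlapping libraries. That of Bach1 was -0.86 ± 0.028, -1.04 ± 0.12 and -1.54 ± 0.017 at the same times, with no overlap between times. In plain counts without length scaling, the Nfe2l2 ratio was 1.05, 1.21 and 1.32, so its flat course depends on the length scaling. The plain Bach1 ratio was -0.60 to -0.54 at 0 min, -0.74 to -0.57 at 30 min and -0.998 to -0.950 at 60 min, so that the 0 and 30 min libraries then overlapped.

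Maf, the large Maf c-Maf, was the gene of the 6 that fell. It lies on chr8:115682942-115707794 (minus strand; ENSMUSG00000055435.6). Its level was 194.3, 210.4 and 184.2 CPM at 0 min, 173.9, 178.8 and 163.4 CPM at 30 min, and 126.5, 138.0 and 132.4 CPM at 60 min. Every 60 min library was below every 30 min library, and these below every 0 min library.

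Maf was 1.48-fold lower at 60 min than at 0 min (log2 change -0.57 ± 0.05, edgeR adjusted p = 1.09e-06) and 1.30-fold lower at 60 min than at 30 min (-0.38 ± 0.05, edgeR adjusted p = 0.000126). The first step was smaller, with a log2 change of -0.19 ± 0.05 at 30 min against 0 min (edgeR adjusted p = 0.0316), which is 33.4% of the log2 change at 60 min. That call was lost without replicate 1 (-0.20, edgeR adjusted p = 0.0750) or replicate 2 (-0.14, 0.126) at 0 min, and without replicate 1 (-0.20, 0.0641) or replicate 3 (-0.15, 0.145) at 30 min. In CPM per kb, Maf was at 0.888 of the Maff level at 60 min and 25.5-fold above it at 0 min. In plain CPM the direction at 60 min turned, with a mean of 132.3 ± 5.7 CPM for Maf and 46.9 ± 1.7 CPM for Maff.

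The order of the 6 by level in CPM per kb differed between the times. At 0 min it was Nfe2l2 (76.7 ± 2.1 CPM per kb), Maf (23.8 ± 1.6), Mafg (19.0 ± 0.29), Bach1 (15.4 ± 0.61), Mafk (8.07 ± 0.27) and Maff (0.936 ± 0.12), with no overlap between neighbours. At 30 min it was Nfe2l2 (100.0 ± 9.3), Maf (20.9 ± 0.95), Mafg (20.5 ± 0.84), Bach1 (17.1 ± 0.58), Mafk (8.56 ± 0.052) and Maff (6.20 ± 2.0), where Maf and Mafg overlapped, as did Mafk and Maff. At 60 min it was Nfe2l2 (141.8 ± 6.4), Mafg (22.8 ± 0.30), Maff (18.1 ± 0.64), Bach1 (17.6 ± 0.42), Maf (16.1 ± 0.70) and Mafk (10.3 ± 0.34), where Maff and Bach1 overlapped. The order at 60 min depends on the length used. By the longest transcript, Maff (24.0 CPM per kb) was followed by Maf (20.8) and then Bach1 (18.6). In plain CPM, Maf (132.3 ± 5.7) stayed second at 60 min, overlapping Mafg (127.8 ± 1.7), ahead of Bach1 (108.9 ± 2.6), Maff (46.9 ± 1.7) and Mafk (40.2 ± 1.3).

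Of 6 relatives of these genes, 2 had enough counts to be tested. Nfe2l1, whose product Nrf1 controls proteasome genes, had 125.7 ± 4.6 CPM at 0 min, 133.3 ± 4.1 at 30 min and 149.6 ± 2.1 at 60 min (SD, n = 3 each). It was called higher at 60 min against 0 min (log2 change 0.25, edgeR adjusted p = 0.000158) and against 30 min (0.17, edgeR adjusted p = 0.00589), and not at 30 min against 0 min (0.08, edgeR adjusted p = 0.204). Bach2, a repressor known from lymphocytes, stayed between 0.744 and 0.878 CPM on average and was called in no comparison. Mafa, Nfe2 and Nfe2l3 had 0 to 7 counts over the 3 libraries of a time, and Nrl, the photoreceptor member, had 0 counts in all 9. The relatives called were 0 of 2 at 30 min against 0 min, 1 of 2 higher at 60 min against 0 min and 1 of 2 higher at 60 min against 30 min, with none lower, beside the shares over all tested genes of 8.18%, 25.0% and 16.5% called. The median log2 changes of these relatives were 0.11, 0.074 and -0.038.

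Of 13 genes that act on the stability of Nrf2 or Bach1 protein, 2 were called at 30 min and 7 at 60 min against 0 min, where 8.18% and 25.0% of all tested genes were called. Counts were 1 higher and 1 lower at 30 min against 0 min, 5 higher and 2 lower at 60 min against 0 min, and 1 higher and 1 lower at 60 min against 30 min, where 16.5% of all genes were called. In DESeq2, with total-count scaling, with no low-count filter, with only the libraries compared and with a replicate block, 4 rather than 7 were called at 60 min against 0 min, 2 of them higher. The median log2 changes of the list were 0.02, 0.03 and 0.04. Sqstm1 encodes p62, which binds Keap1 and releases Nrf2. Its mean was 224.8 ± 8.2 CPM at 0 min, 259.3 ± 12.1 at 30 min and 368.0 ± 20.8 at 60 min. It was 1.64-fold higher at 60 min than at 0 min (log2 change 0.71, edgeR adjusted p = 3.74e-08). At 30 min against 0 min its log2 change was 0.21 (edgeR adjusted p = 0.0138), a call lost without replicate 2 at 0 min (0.0603) or replicate 1 (0.0598) or 3 (0.0623) at 30 min.

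Keap1, the adaptor that brings Nrf2 to its ubiquitin ligase, had 52.1, 51.4 and 52.1 CPM at 0 min, 51.1, 49.9 and 51.6 CPM at 30 min, and 46.5, 47.0 and 44.0 CPM at 60 min. The 60 min libraries lay below all others. The log2 change was -0.18 at 60 min against 0 min (edgeR adjusted p = 0.00309) and -0.15 at 60 min against 30 min (edgeR adjusted p = 0.0150). The second of these calls was lost in DESeq2 (DESeq2 adjusted p = 0.0525) and without replicate 3 at 30 min (edgeR adjusted p = 0.0633) or at 60 min (0.0648). At 30 min against 0 min Keap1 was not called (-0.03, edgeR adjusted p = 0.718).

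Palb2, a BRCA2 partner that can also bind Keap1, was lower at 30 min (log2 change -0.42, edgeR adjusted p = 0.000115) and at 60 min (-0.33, edgeR adjusted p = 0.000364) against 0 min. Fbxw11, an F-box protein that acts on Nrf2, was higher at 60 min against 0 min (0.19, edgeR adjusted p = 0.000906). Fbxl17, an F-box protein that acts on Bach1, was at the threshold at 60 min against 0 min (0.22, edgeR adjusted p = 0.04996). The other two called higher at 60 min against 0 min were Gsk3b, a kinase that marks Nrf2 for degradation (0.10, edgeR adjusted p = 0.0352), and Fbxo22, which also acts on Bach1 (0.14, edgeR adjusted p = 0.0446). Of 17 alternatives, including leaving out each library, 15 ended the call of Fbxl17, 14 that of Fbxo22 and 11 that of Gsk3b, with no change of direction. Their adjusted p-values with total counts were 0.166, 0.309 and 0.477 in that order.

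Of 22 known targets of CNC and small Maf dimers, 2 were called at 30 min and 4 at 60 min against 0 min and 4 at 60 min against 30 min. Of all tested genes 8.18%, 25.0% and 16.5% were called in these comparisons, so the counts of targets were near the background. Counts were 2 higher and 0 lower at 30 min against 0 min, 3 higher and 1 lower at 60 min against 0 min, and 3 higher and 1 lower at 60 min against 30 min. At 30 min, DESeq2 and limma-voom each called 4 and a fit with no low-count filter called 5. The list medians were -0.02, -0.07 and -0.02. With libraries scaled by total counts, 3 were higher and 9 lower at 60 min against 0 min, so the count of lower genes depends on the scaling. Of all 14246 tested genes, 1313 were higher and 3048 lower with total counts in that comparison. That scaling moved the median of all genes by -0.07 at 60 min.

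Slc7a11, the cystine transporter that feeds glutathione synthesis, was the target that changed most. It had 52.8, 47.5 and 56.9 CPM at 0 min, 85.4, 74.5 and 78.7 CPM at 30 min, and 164.7, 147.5 and 146.5 CPM at 60 min, with the times fully separated. Its log2 change was 0.60 ± 0.07 at 30 min (edgeR adjusted p = 3.61e-05) and 1.54 ± 0.07 at 60 min (edgeR adjusted p = 4.82e-10) against 0 min. Srxn1, which encodes sulfiredoxin and repairs oxidized peroxiredoxins, had a log2 change of 0.29 at 30 min (edgeR adjusted p = 0.000299) and 0.60 at 60 min (edgeR adjusted p = 3.97e-08) against 0 min. Txnrd1, thioredoxin reductase, was higher at 60 min than at 0 min (0.17, edgeR adjusted p = 0.00235).

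Osgin1, an oxidative stress-induced growth inhibitor, went the other way. It had 21.8, 21.5 and 20.6 CPM at 0 min, 16.3, 17.6 and 19.7 CPM at 30 min, and 11.2, 13.2 and 11.8 CPM at 60 min. Its log2 change was -0.82 ± 0.08 at 60 min against 0 min (edgeR adjusted p = 3.06e-06), while the -0.26 at 30 min was not called (edgeR adjusted p = 0.0633). That change was called lower by limma-voom (limma-voom adjusted p = 0.0456) and with total counts (edgeR adjusted p = 0.0381). It was also called with no low-count filter (edgeR adjusted p = 0.0132), with only the libraries compared (0.0495) and without replicate 3 at 30 min (0.0279).

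Hmox1, heme oxygenase and a classical target repressed by Bach1, had a mean of 67.6 ± 3.6 CPM at 0 min, 66.8 ± 1.2 at 30 min and 63.8 ± 0.47 at 60 min. Its log2 change was -0.02 at 30 min (edgeR adjusted p = 0.843) and -0.08 at 60 min (edgeR adjusted p = 0.156) against 0 min, and it was called lower at 60 min with total-count scaling (-0.15, edgeR adjusted p = 0.0100). Nqo1, a quinone reductase, had 8 to 19 counts per library. At this depth no difference was detectable for Nqo1 (log2 change 0.02 ± 0.38 at 60 min against 0 min, edgeR adjusted p = 0.982).

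**Figure D4:**
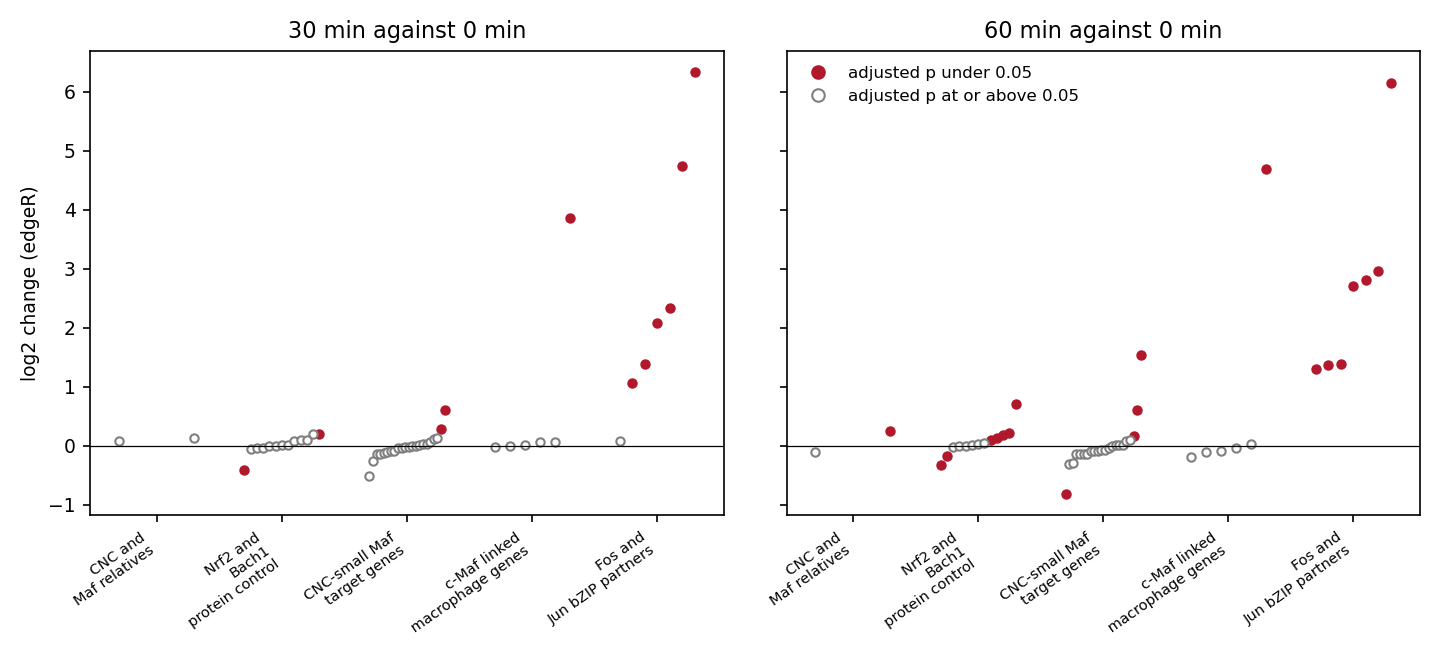
Log2 change (edgeR) of each tested gene of 5 lists at 30 min (left) and 60 min (right) against 0 min, ordered by value within a list; filled points have an adjusted p under 0.05. The Fos and Jun genes lie mostly above 1, most target genes lie near 0, and the highest point of the c-Maf list is Il10, at 3.86 at 30 min and 4.69 at 60 min.

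Of 10 macrophage genes linked to c-Maf, 6 were tested, and 1 was called at 30 min and 1 at 60 min against 0 min and 2 at 60 min against 30 min. Of all tested genes 8.18%, 25.0% and 16.5% were called in these comparisons. Il10, the anti-inflammatory cytokine gene that c-Maf activates, had 2, 5 and 2 counts at 0 min, 60, 32 and 42 counts at 30 min, and 57, 96 and 91 counts at 60 min. The 0 min libraries lay far below the others, and the 30 and 60 min libraries overlapped. Its log2 change was 3.86 ± 0.43 at 30 min (edgeR adjusted p = 3.05e-05) and 4.69 ± 0.40 at 60 min (edgeR adjusted p = 5.93e-07) against 0 min. These folds rest on 9 counts at 0 min. At 60 min against 30 min the log2 change of 0.82 was called (edgeR adjusted p = 0.0364). That call was lost without replicate 2 (0.164) or 3 (0.110) at 30 min or replicate 2 (0.145) or 3 (0.113) at 60 min, and with a replicate block (log2 change 0.81, 0.0743).

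Gas6, a ligand of the receptors that bind apoptotic cells, was lower at 60 min than at 30 min (log2 change -0.24, edgeR adjusted p = 0.0247). That call was lost without any 1 of the 30 min libraries (edgeR adjusted p 0.0501 to 0.0961) and without replicate 1 (0.113) or 2 (0.0694) at 60 min. The complement genes C1qa, C1qb and C1qc and the mannose receptor gene Mrc1 were called in no comparison, and Cd5l, Cd163, Folr2 and Lyve1 had too few counts to be tested. The list counts were 1 higher and 0 lower at 30 min, 1 higher and 0 lower at 60 min and 1 higher and 1 lower between these, and its medians were 0.04, -0.07 and -0.05. With total-count scaling, 3 genes of the list were lower at 60 min against 0 min, where 3048 of all 14246 tested genes were.

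The Fos and Jun genes encode bZIP proteins that bind motifs close to those of Maf and CNC dimers, and some of them dimerize with Maf proteins. Against 0 min, 6 of 7 were called higher at 30 min and 7 of 7 at 60 min, where 4.84% and 13.3% of all tested genes were. The medians were 2.08 and 2.71, and the courses of the genes differed. Between 60 and 30 min, 4 were higher and 1 lower, with a median of 0.30, where 8.87% of all tested genes were higher and 7.65% lower. Fosb was not called in that comparison. It was called lower in some alternatives, among them DESeq2 (log2 change -0.19, DESeq2 adjusted p = 0.0346) and limma-voom (-0.19, limma-voom adjusted p = 0.0250). Fosb changed most, with 0.582 ± 0.25 CPM at 0 min, 47.1 ± 2.9 at 30 min and 41.1 ± 0.13 at 60 min, a log2 change of 6.34 at 30 min (edgeR adjusted p = 6.35e-13) and 6.14 at 60 min (edgeR adjusted p = 1.14e-12) against 0 min. Fos had 7.28 ± 0.47 CPM at 0 min, 196.7 ± 8.5 at 30 min and 56.8 ± 13.2 at 60 min (SD, n = 3 each), so it was highest at 30 min, while Maff was highest at 60 min, the last time measured. Fos was lower at 60 min than at 30 min (log2 change -1.79, edgeR adjusted p = 8.41e-08), while Maff was higher (1.54). Junb climbed in both steps, as Maff and Nfe2l2 did, with 42.0 ± 1.3, 177.7 ± 15.6 and 294.1 ± 14.4 CPM. Fosl2 did so too, with 36.1 ± 0.82, 183.1 ± 26.0 and 235.7 ± 11.2 CPM, as did Jund, with 14.9 ± 0.96, 31.2 ± 1.2 and 38.5 ± 1.3 CPM. Jun had 109.8 ± 5.1 CPM at 0 min, 288.5 ± 18.6 at 30 min and 286.8 ± 15.0 at 60 min, and was called against 0 min at both times (log2 change 1.39 at each). Fosl1 was first called at 60 min (log2 change 1.31 against 0 min, edgeR adjusted p = 0.000337).

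The 3′ untranslated regions of the 6 genes differ in length and in the AU-rich pentamer ATTTA, an element known from unstable transcripts. For each gene the transcript with the longest such region in the GENCODE annotation was used. The region of Maff is 1221 bases and holds 4 copies, 3.28 per kb. Those of the others hold 0.960 (Mafg), 1.44 (Bach1), 1.62 (Maf), 2.23 (Nfe2l2) and 2.34 (Mafk) per kb, and the median of 11256 genes was 1.20 per kb. The longer form TATTTAT was present 2 times in Maff, 3 times in Mafg, 1 time each in Mafk and Nfe2l2, and not in Maf or Bach1; 29.5% of the 11256 genes had it.

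Across the 9 libraries, the genes whose log2 CPM followed each member most closely were found among 9382 protein-coding genes with a mean of at least 5 CPM. The libraries share 3 times, so many genes correlate highly, and the values are descriptions. For Maff they were Nlrp3, an inflammasome sensor (Pearson r = 0.998, log2 change 2.96 at 60 min against 0 min), Slc15a3, an endolysosomal transporter (0.998, 2.65), and Kctd12 (0.997, 1.09). For Nfe2l2 they were Spty2d1 (0.995, 1.00), the kinase gene Sgk1 (0.995, 1.68) and Rasgef1b (0.995, 2.52). For Maf they were the homeobox gene Hhex (0.988, -0.96), Rcor3 (0.985, -0.72) and the histone methyltransferase gene Setd1b (0.981, -0.32). Mafg was followed by Larp4b (0.991), Zfp275 (0.991) and the NADPH oxidase subunit gene Ncf1 (0.988), and Mafk by Opa3 (0.991), the bicarbonate transporter gene Slc4a7 (0.988) and 1810013L24Rik (0.983). Bach1 was followed by Ibtk (0.988), Bri3 (0.975) and the kinase gene Abl2 (0.972).

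4 of the 6 genes overlap another annotated gene. Sirt7 shares 124 exon bases with Mafg on the same strand, so reads there could be counted for either; Sirt7 had 21.5 ± 1.2 CPM at 0 min, 20.4 ± 1.1 at 30 min and 19.0 ± 0.92 at 60 min and was called in no comparison. The antisense gene Gm15655 overlaps Maf on the opposite strand by 440 exon bases and had at most 2 counts in a library. Tmem184a overlaps Mafk on the opposite strand by 169 exon bases and had at most 3 counts. Gm24996, a small nuclear RNA gene, lies within the span of Nfe2l2 outside its exons and had at most 1 count.

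The authors' deposited table for 30 min gave log2 changes of -0.20 for Maf, 2.72 for Maff, 0.10 for Mafg, 0.08 for Mafk, 0.38 for Nfe2l2 and 0.14 for Bach1. The authors' deposited table for 60 min gave -0.57, 4.27, 0.26, 0.35, 0.89 and 0.19 for the same genes in that order. For Bach1 at 30 min the adjusted p in the authors' deposited table was 0.0728, which is on the other side of 0.05 from the 0.0366 of edgeR. For the other 5 genes and for Bach1 at 60 min, the authors' deposited table lies on the same side of 0.05 as the edgeR values.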

How the data were processed

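RNA was measured in 9 libraries, 3 per time. According to the submitters' processing notes, reads passed through bcl2fastq 2.20, cutadapt 1.18 and the aligner STAR 2.7.0f; Picard 2.18.26 is listed too, and the build was mm10. The deposited table holds expected counts per gene from RSEM 1.3.1, not normalized. No annotation or strand setting is given in the sources used here. RSEM splits a read among all genes it matches, which leaves near-identical or overlapping genes uncertain. Between 5.04% and 5.32% of a library's values were not whole, and all were rounded. The authors' deposited DESeq2 tables give, per the file headers, a log2 fold change and p-values per gene. Their columns of mean normalized signal and of test scores, also made by the authors, were deposited beside these and were not used. Their baseline of 0 min was inferred from the fold changes.

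Counts were tested with edgeR 4.0.16 (R 4.3.3) in its quasi-likelihood test, 9 libraries in 1 fit, TMM factors of 0.9705 to 1.034, the default low-count filter (14246 genes kept), two-sided, with Benjamini-Hochberg adjustment over all genes. On simulated counts for 60 min against 0 min, 186 of 200 genes changed 2-fold among 14246 were recovered. Recovery of smaller changes was not tested, and every member but Maff changed by less than 2-fold in that comparison. CPM was scaled to TMM-adjusted totals, and to plain totals for cell type markers. The biological coefficient of variation was 5.20%. Replicates of a time differed beyond sampling noise (chi-square per gene, mean 5.04 to 18.7, median 0.869 to 1.39). All 55450 identifiers were found in GENCODE M21 (GRCm38). Promoter sequences are from RefSeq on GRCm38.p6.

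The members and the 5 gene lists were chosen with earlier results of these data known. Named are the 6 members, 6 relatives, up to 5 called genes of each other list with the largest log2 change in each comparison, Hmox1, Nqo1, Keap1 and Il10, the 3 genes most correlated with each member, and overlapping genes; C1qa, C1qb, C1qc, Mrc1, Gsk3b, Fbxo22, Ftl1 and Fth1 were named after their values were seen. Some genes are not reported here. Alternatives were other size factors, total counts, other filters, DESeq2 1.42.0, limma-voom (limma 3.58.1), fits of 2 times, a replicate block, other lengths, and leaving out each library.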

Additional observations from a re-analysis of the deposited data

Results flagged for a closer look

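For 5 of the 6 genes, the log2 change at 60 min of LPS differed from that at 30 min in the edgeR test of the difference itself. Both changes share the 0 min libraries, so the difference is that of 60 min against 30 min. It was 1.54 for Maff, 0.50 for Nfe2l2, 0.27 for Mafk, 0.15 for Mafg and -0.38 for Maf, and in each of the 5 all 3 of the 60 min libraries lay on the same side of all 30 min libraries. Of all tested genes, 16.5% were called in that comparison and 33.8% had libraries that did not overlap. The call of Mafg was lost without replicate 2 at 30 min (edgeR adjusted p = 0.0575). For Bach1 it was 0.05 and was not called.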

How the results depend on the processing

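Of 306 alternative values for the log2 changes of the 6 genes, 293 kept their direction and their side of the threshold, 13 lost the call in the same direction and none turned. Calls lost were those of Bach1 and Maf at 30 min against 0 min and Mafg at 60 min against 30 min; the 3 lost other than by leaving out a library were Bach1 at 30 min with total counts (0.12, edgeR adjusted p = 0.0979), with only the libraries compared (0.14, 0.0699) and with a replicate block (0.15, 0.0601). Leaving out each library gave 0.11 to 0.17 for Bach1 and -0.23 to -0.14 for Maf at 30 min against 0 min, and 0.12 to 0.18 for Mafg at 60 min against 30 min. Of 1115 values for other named genes, 1049 stayed, 34 weakened, 17 gained a call and 15 turned, all of uncalled genes.

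Those that turned, with their range on leaving out a library, were Bach2 (-0.10 to 0.36 at 30 min, -0.24 to 0.038 at 60 min, -0.46 to 0.0030 at 60 against 30 min), Fosl1 (-0.049 to 0.18) and Hmox1 (-0.052 to 0.023) at 30 min, Nqo1 at 60 min (-0.28 to 0.44, and -0.048 with total counts), and Fbxl17 (-0.047 to 0.077, and -0.019 with total counts) and Jun (-0.041 to 0.046) at 60 against 30 min.

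Numbers of list members called moved as follows. For protein control at 30 min, leaving out a library gave 1 to 2; at 60 min against 0 min 4 were called with total counts, no filter, DESeq2, only the libraries compared or the block (4 to 6 on leaving out a library), and at 60 against 30 min 1 with DESeq2 (1 to 2). For the targets at 30 min 5 were called with no filter, 4 with DESeq2 and 4 with limma-voom (2 to 4 on leaving out a library), and at 60 min against 0 min 12 with total counts. For the c-Maf list 4 were called at 60 min against 0 min with total counts (1 to 3 on leaving out a library), and 1 at 60 against 30 min with the block (0 to 2).

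By the longest transcript, the Maff share was 38.1% at 60 min and 3.75% at 0 min, that of Mafg 65.5%, 55.3% and 41.3% at 0, 30 and 60 min, that of Mafk 20.6% at 60 min and 30.8% at 0 min, and the log2 ratio of Nfe2l2 to Bach1 2.86, 3.09 and 3.55. In plain counts the shares were 1.73%, 9.68% and 21.8% for Maff, 75.9%, 69.96% and 59.5% for Mafg, and 22.4%, 20.4% and 18.7% for Mafk. Over all genes, total-count scaling gave 551 higher and 649 lower calls at 30 min, 1313 and 3048 at 60 min, and 1005 and 1672 at 60 against 30 min, against 689 and 477, 1891 and 1671, and 1263 and 1090 with TMM.

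No sign of pairing by replicate number was seen, though 3 libraries a time are too few to exclude it. Correlations of deviations were -0.156 to 0.133 for 9 same-numbered pairs and -0.199 to 0.205 for 18 others. A library correlated best with its own number in 5 of 18 cases. With the replicate block 967, 3234 and 2108 genes were called, against 1166, 3562 and 2353 without it. Maff at 0 min rests on 60 to 79 counts a library and Il10 on 2 to 5. Fits that leave out libraries hold fewer samples; otherwise the cause of these shifts was not tested.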

Other observations

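Ferritin genes among the targets of CNC and small Maf dimers gave very unequal counts. Ftl1, the ferritin light chain, had 2684 ± 70.6 CPM at 0 min, 2956 ± 145.3 at 30 min and 2841 ± 4.8 at 60 min (SD, n = 3 each). Fth1, the heavy chain, had 0.670 ± 0.21, 0.705 ± 0.074 and 0.550 ± 0.19 CPM at the same times. Whether Fth1 reads were given to near-identical copies was not tested, and neither gene was called in any comparison.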
